A study of Mus musculus with 5 samples.

Results

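Expression of the transforming growth factor beta (TGF-beta) pathway was examined in neural precursor cells of the adult mouse, with 10 genes chosen by name: the ligands Tgfb1 and Tgfb2, the receptors Tgfbr1 and Tgfbr2, the signal transducer Smad3, the inhibitory Smad7, and the nuclear repressors Ski, Skil, Tgif1 and Tgif2. They were taken from the per-library tables by gene name, as 10 of 46078 genes, and 8 of the 10 reached a mean of 1 TPM (a gene's share of all transcripts, corrected for length and scaled to the same sum in every library). The study used the cells as a forebrain control for astrocytes derived from embryonic stem cells. The labels give female C57BL/6 mice of 5 to 8 weeks without mutation, and the study's methods give another age range and describe cells of the subventricular zone grown as spheres with EGF and FGF, plated, and given PBS as a sham exposure. Every library received PBS alone, and the groups differ in the time from PBS to RNA isolation, which was 1 h in 2 libraries (1 h sham, replicates 1 and 2) and 8 h in 3 libraries (8 h sham, replicates 13, 14 and 15). The time from plating therefore differs in the same way. Per the methods 1 replicate of these cells is 1 animal. The labels do not tie the libraries to animals, so the spread between libraries may be partly technical.

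TGF-beta is secreted in a latent form, held in the matrix and released by integrins or thrombospondin. The active dimer brings together the type II receptor TGFBR2 and the type I receptor TGFBR1, which phosphorylates SMAD2 and SMAD3, and these enter the nucleus with SMAD4. SMAD7 is induced by the signal and blocks the receptor, while SKI, SKIL (SnoN), TGIF1 and TGIF2 hold SMAD-bound genes in a repressed state. In the adult subventricular zone the pathway is known for restraining the proliferation of neural stem and precursor cells.

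The libraries had 13681 to 13967 genes with a TPM of at least 1, and their relative depths (coverage divided by FPKM) ranged from 5.57 to 7.18. Library identifiers fell into 2 number series: series 1 holds both 1 h libraries and 8 h replicate 14, and series 2 holds 8 h replicates 13 and 15. The series stood apart in several features. Xist was at most 0.061 TPM and a set of 4 Y-linked genes summed to 138 to 181 TPM in the 3 libraries of series 1, against 165 and 200 TPM of Xist and at most 0.025 TPM of the Y-linked genes in series 2, so that 3 of 5 libraries go against the label female. The mitochondrial share was 10.7% to 11.1% in series 1 and 6.23% and 6.30% in series 2, and 6 proliferation genes summed to 655 to 719 TPM in series 1 and to 1258 and 1340 TPM in series 2. Time can be compared within series 1 only, as 8 h replicate 14 against both 1 h libraries, because series 2 holds no 1 h library. The difference within series 1 is therefore given beside the pooled difference.

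The precursor label was met by the markers: all 12 neural stem and precursor genes were detected, among them Sox2 at 181 to 228 TPM and Nes at 690 to 784 TPM. The 6 microglial genes summed to at most 1.47 TPM, with Tmem119, Aif1 and C1qa at 0 in every library. The 5 endothelial genes summed to 11.8 to 15.4 TPM, nearly all of it Flt1 (9.71 to 13.6 TPM) and Kdr (1.07 to 1.97 TPM), while Cdh5 and Cldn5 were at 0. The 7 astrocyte genes summed to 969 and 1073 TPM at 1 h and to 965 TPM in 8 h replicate 14, against 1596 and 1668 TPM in 8 h replicates 13 and 15. In bulk RNA, fewer cells of a type and less RNA per cell cannot be told apart.

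On the TPM scale, which is corrected for length, Smad3 was the most abundant member and Tgfb1 the least. The order of the mean TPM was Smad3, Ski, Tgif2, Tgfbr1, Tgfb2, Tgif1, Skil, Tgfbr2, Smad7 and Tgfb1. The ranges over the 5 libraries did not overlap between Smad3 and Ski, between Ski and Tgif2, between Tgfbr1 and Tgfb2, between Tgif1 and Skil, or between Tgfbr2 and Smad7. The other neighbours overlapped over the 5 libraries. Tgif2 and Tgfbr1 changed places with time: Tgif2 lay below Tgfbr1 in both 1 h libraries and above it in all 3 of the 8 h libraries, so the third place of Tgif2 comes from the 8 h libraries. The order between genes depends on the measure, and coverage divided by library depth gave another. In that measure Ski (19.8 to 25.1) lay above Smad3 (7.93 to 8.50), and Tgfbr2 (2.40 to 3.66) above Tgfbr1 (1.23 to 1.59). Tgif2 (1.81 to 4.86) lay above Tgfbr1 in every library. The cells thus held transcripts of both receptors and of the transducer SMAD3, with the inhibitory Smad7 near 1 TPM.

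**Figure D1:**
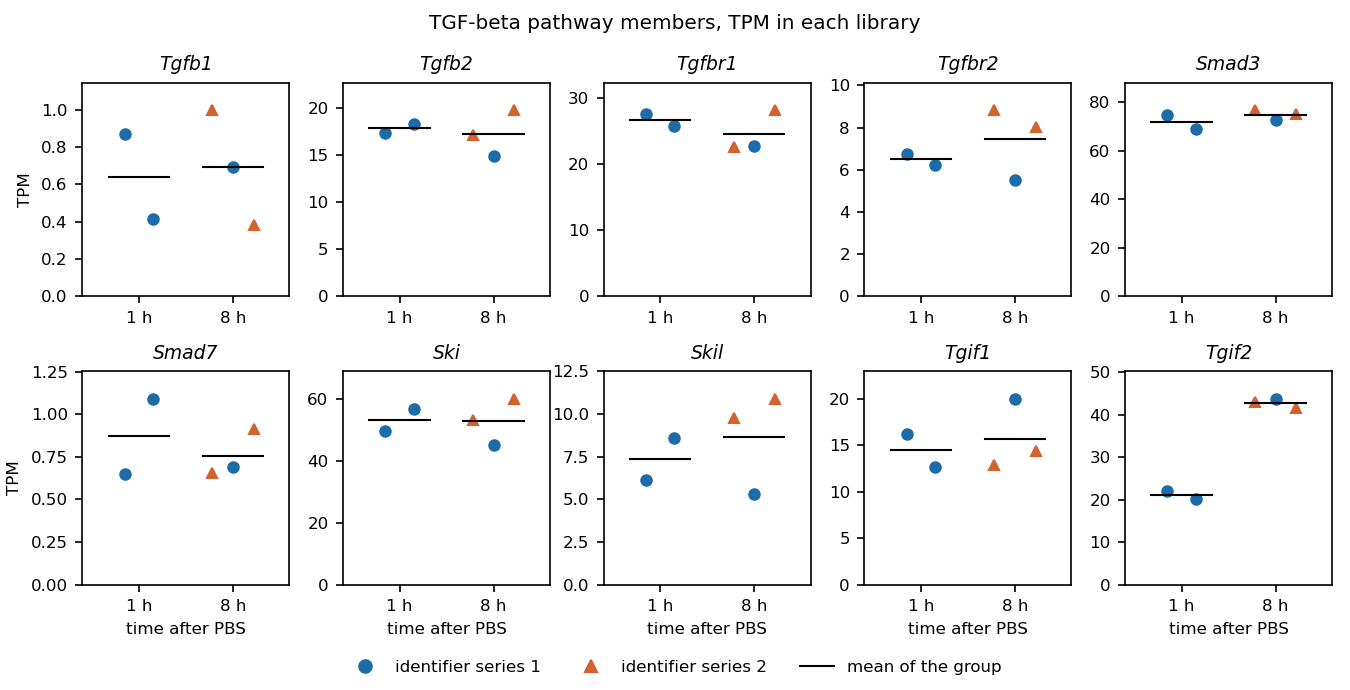
TPM of each of the 10 members (vertical axes, each from 0) in the 1 h and 8 h libraries, with 1 point per library, colour and shape for the identifier series, and a line at the group mean. Tgif2 is the only member whose 8 h libraries (41.7 to 43.7 TPM) all lie above the 1 h libraries (20.3 and 22.1 TPM).

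The members were chosen with the comparison of 8 h with 1 h already known, so their differences are given as a description with standard errors (SE) and no test. Differences are 8 h minus 1 h in mean log2(TPM + 1), a scale that understates changes of low genes, and the SE is that of a limma fit over the 13870 genes whose mean TPM reached 1. Among the 8 members that passed this minimum, 1 (Tgif2) had 8 h values entirely above the 1 h values and 0 had them entirely below. Of all genes tested, 23.7% lay entirely above and 9.43% entirely below. The median difference of the 10 members was 0.05 and that of all genes tested 0.10. Within series 1 the members' median was -0.17 and that of all genes 0.01.

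Tgfb2 was the more abundant of the member ligands. It encodes the TGF-beta2 isoform and lies on chromosome 1, at 186622792 to 186705989 (minus strand, GRCm38, as in the deposited tables). Tgfb2 stood at 17.3 and 18.4 TPM in the 1 h replicates 1 and 2 and at 17.1, 14.9 and 19.8 TPM in the 8 h replicates 13, 14 and 15. The groups overlapped, with means of 17.9 ± 0.73 TPM (SD, n = 2) and 17.3 ± 2.46 TPM (SD, n = 3) and a difference of -0.05 (SE 0.15), which was -0.25 within series 1. Tgfb1, on chromosome 7 at 25687002 to 25705077 (plus strand), encodes the isoform best known from immune cells and fibrosis. Tgfb1 had 0.872 and 0.412 TPM at 1 h against 0.999, 0.694 and 0.383 TPM at 8 h. Every library was thus at or under 1 TPM, and the spread within each time exceeded the difference between the means (0.04 on the log2 scale, 0.06 within series 1).

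Both receptors were transcribed at both times. Tgfbr1 (chromosome 4, 47353222 to 47414931, plus strand), the type I kinase, had 27.6 and 25.7 TPM at 1 h against 22.6, 22.8 and 28.1 TPM at 8 h. The highest and the lowest value were both 8 h libraries, and the difference was -0.12 (SE 0.14), or -0.22 within series 1. Tgfbr2 (chromosome 9, 116087698 to 116175363, minus strand), which binds the ligand first, had 6.77 and 6.22 TPM at 1 h against 8.82, 5.50 and 8.01 TPM at 8 h. Its pooled difference was 0.15 (SE 0.21), and within series 1 it was -0.20. Its lowest library was 8 h replicate 14 and its highest were the libraries of series 2, so the sign of the Tgfbr2 difference depends on which 8 h libraries are used.

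Smad3 was the steadiest of the abundant members. The gene, on chromosome 9 at 63646767 to 63757994 (minus strand), encodes the receptor-activated SMAD that binds DNA. Smad3 had 74.6 and 68.9 TPM at 1 h against 76.6, 72.4 and 74.9 TPM at 8 h, a difference of 0.06 (SE 0.09) and of 0.01 within series 1. Smad7, the feedback inhibitor that SMAD3 itself induces, had 0.650 and 1.09 TPM at 1 h against 0.657, 0.691 and 0.911 TPM at 8 h. The 1 h libraries held both the lowest and the highest Smad7 value, and at this level the libraries do not resolve a difference (-0.09, and -0.13 within series 1).

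Of the related repressors Ski and Skil, Ski was far more abundant. Ski (chromosome 4, 155154075 to 155222592, minus strand) had 49.5 and 56.7 TPM at 1 h against 53.2, 45.2 and 60.04 TPM at 8 h, with a difference of -0.01 (SE 0.15) and of -0.22 within series 1. Skil (chromosome 3, 31095058 to 31122577, plus strand), whose protein SnoN is degraded on TGF-beta signalling and whose gene is then induced again, had 6.14 and 8.61 TPM at 1 h against 9.73, 5.32 and 10.9 TPM at 8 h. The Skil range, 0.91 on the log2(TPM + 1) scale, was the widest after that of Tgif2. It ran along the identifier series: within series 1 the difference was -0.39, and 8 h replicates 13 and 15 exceeded 8 h replicate 14 by 0.84. The pooled Skil difference of 0.17 had an SE of 0.31.

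Tgif1 and Tgif2 encode homeodomain repressors of the TALE class that recruit histone deacetylases to SMAD complexes. Tgif1 had 16.2 and 12.7 TPM at 1 h against 12.8, 20.0 and 14.3 TPM at 8 h, with overlapping groups and a difference of 0.10 (SE 0.22). Its highest library was 8 h replicate 14, and within series 1 the difference was 0.45. Tgif2 had 22.1 and 20.3 TPM at 1 h against 43.1, 43.7 and 41.7 TPM at 8 h. The 8 h mean of Tgif2 (42.9 ± 1.06 TPM, SD, n = 3) was 2.02 times the 1 h mean (21.2 ± 1.26 TPM, SD, n = 2), and all 8 h libraries lay well above both 1 h libraries. The Tgif2 difference was 0.98 (SE 0.10), or 0.88 above the median of all genes, and it was 1.01 within series 1. Proliferation genes, mitochondrial share and the sex-linked genes divide 8 h replicate 14 from the other 8 h libraries. The Tgif2 value in that library was 43.7 TPM, beside 43.1 and 41.7 TPM in 8 h replicates 13 and 15. Whether any of these features bears on the Tgif2 difference was not tested.

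**Figure D2:**
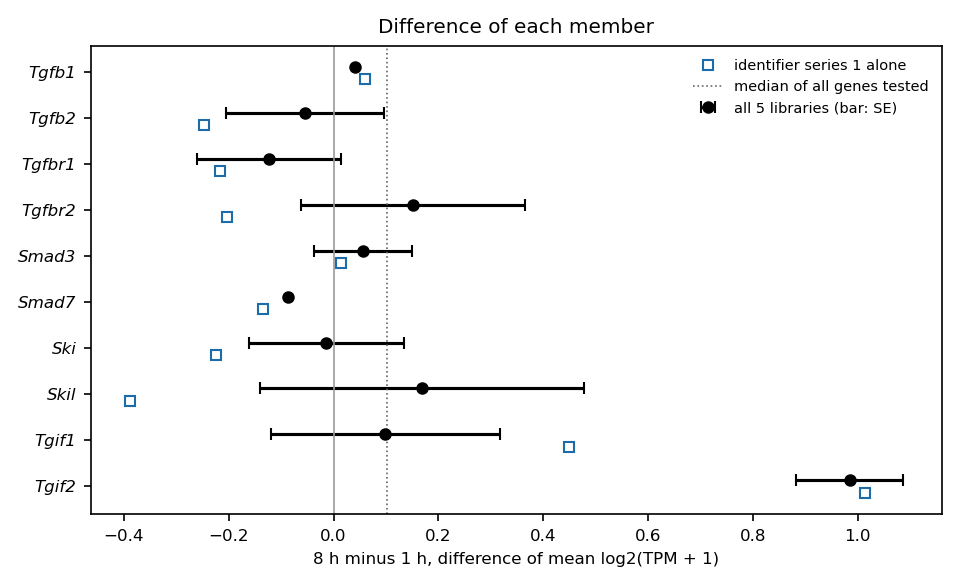
Difference of each member, 8 h minus 1 h in mean log2(TPM + 1) (horizontal axis), for all 5 libraries (filled points, bars of 1 SE) and for identifier series 1 alone (open squares). Tgif2 lies at 0.98 and 1.01, Skil and Tgfbr2 lie above 0 with all libraries and below 0 within series 1, and Smad7 and Tgfb1, below the minimum level, have no SE.

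Tgif2 shares sequence with a processed copy, which bears on its value. The pseudogene Tgif2-ps2, on chromosome 17 at 40115358 to 40116068, has a transcript of 711 bases in GENCODE vM21, of which 708 (99.6%) are identical to the Tgif2 transcript Tgif2-202 over an alignment without gaps. Reads from either locus can be assigned to the other. Tgif2-ps2 was listed at 6.74 and 8.13 TPM at 1 h and at 15.4, 6.91 and 11.9 TPM at 8 h. The summed level of both was 28.8 and 28.4 TPM at 1 h against 58.5, 50.6 and 53.6 TPM at 8 h, a ratio of 1.90, and the groups still did not overlap. Part of Tgif2 (156844351 to 156855570) is also covered on the other strand by 5430405H02Rik, listed at 3.36 to 5.65 TPM. The libraries were stranded, but no source used here says whether the tables were made with strand. The mean coverage of Tgif2 divided by library depth was 2.20 and 1.81 at 1 h and 3.70, 4.86 and 4.02 at 8 h, again without overlap. The count table used here does not list Tgif2.

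The sequences just upstream of Tgif2 and of its relative Tgif1 are shown because these related genes had different values by time. Both are the 250 bases before the transcript start in RefSeq (GRCm38.p6), read 5′ to 3′ on the strand of the gene, with matches to 4 short motifs in capitals. The SMAD motif was CAGAC, which on the other strand reads as GTCTG. The motif searched for TGIF factors was TGTCA, which on the other strand reads as TGACA. For TEAD factors it was CATTCC, which on the other strand reads as GGAATG. For SP and KLF factors it was GGGCGG, which on the other strand reads as CCGCCC. The motifs were chosen after the values were known, and no matches of different motifs overlapped in these windows. The Tgif2 window lies at chr2:156839757-156840006 (plus strand) and the Tgif1 window at chr17:70853533-70853782 (minus strand), and the genes span 156840007 to 156855570 on chromosome 2 and 70844205 to 70853546 on chromosome 17.
Tgif2: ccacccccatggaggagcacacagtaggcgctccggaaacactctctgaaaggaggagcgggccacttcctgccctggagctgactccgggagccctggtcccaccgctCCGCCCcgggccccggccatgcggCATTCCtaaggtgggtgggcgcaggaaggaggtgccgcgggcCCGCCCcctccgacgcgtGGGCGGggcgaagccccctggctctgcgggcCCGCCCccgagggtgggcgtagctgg
Tgif1: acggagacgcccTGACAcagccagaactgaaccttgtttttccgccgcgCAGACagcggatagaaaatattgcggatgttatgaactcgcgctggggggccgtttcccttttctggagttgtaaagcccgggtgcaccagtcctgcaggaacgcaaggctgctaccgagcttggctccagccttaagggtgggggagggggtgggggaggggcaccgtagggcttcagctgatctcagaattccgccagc
The Tgif2 window held 4 matches to GGGCGG and 1 to CATTCC, and none to CAGAC or TGTCA. The Tgif1 window held 1 match each to CAGAC and TGTCA and none to the others. Over 32851 windows of this length, 42.2% held CAGAC, 40.0% TGTCA, 12.6% CATTCC and 32.7% GGGCGG on either strand. Among the windows of 8 members, GGGCGG was present in 5 (Ski, Smad3, Tgfb1, Tgfbr1 and Tgif2) and CAGAC in 3 (Tgfb2, Tgfbr2 and Tgif1). Smad7 and Skil had no window among the 8, so their motifs were not counted. The Tgif2 window was 74.0% G or C and the Tgif1 window 59.6%. A match is a description of the letters and does not show that a factor binds.

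For the members with the widest ranges, genes of similar course were sought among the 11090 genes whose mean TPM reached 5, by the root mean square difference of centred log2(TPM + 1) over the 5 libraries. Nearest to Tgif2 were Zfp322a (0.068), B3galnt2 (0.098) and RP23-23C4.6 (0.11). Zfp322a had 17.0 and 16.5 TPM at 1 h against 35.6, 33.4 and 30.1 TPM at 8 h, so that it too was about the same in all 8 h libraries. A total of 2 genes lay within 0.1 of Tgif2, 54 within 0.1 of Skil (nearest Pgls, Bmyc and Cnih2) and 37 of Tgif1 (nearest Pvr, Mterf3 and Srxn1). The distance was not scaled to the range of the gene, which was 1.07 for Tgif2, 0.91 for Skil and 0.62 for Tgif1. The numbers of near genes therefore cannot be compared between the members. Pgls, the nearest to Skil, had 56.0 and 81.4 TPM at 1 h against 82.9, 51.7 and 94.2 TPM at 8 h, the same order of libraries as Skil. Likeness over 5 libraries that share the series and the time is a description only.

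The wider pathway was then tested, as 98 other gene names in 5 lists by role, of which 97 were in the tables and 73 had a mean TPM of at least 1. In limma's test on log2(TPM + 1), with a threshold of 0.05 on the adjusted p and of 1 on the absolute difference, 0 of the 73 were higher and 1 (Ctgf) was lower at 8 h. Of all 13870 genes, 0.0144% were called higher and 0.0288% lower. At an unadjusted p under 0.05, 10 of the 73 were higher (13.7%) and 7 lower (9.59%), beside 9.52% and 2.82% of all genes. Values did not overlap for 17 genes higher at 8 h (23.3%) and 10 lower (13.7%), beside the 23.7% and 9.43% of all genes. The median difference was 0.11, close to the 0.10 of all genes, and within series 1 it was -0.01, beside 0.01 for all genes. On the counts, 0 of 7590 genes (0%) were called by edgeR's quasi-likelihood test and 0 by DESeq2, with 199 and 227 genes at an unadjusted p under 0.05. The 8 h columns of that table do not match the libraries they are named for, so this count result, and its series term, cannot be read as a test of these 8 h libraries. Without the column named 8 h replicate 14, 478 genes had an unadjusted p under 0.05 and 0 were called.

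Ctgf, a secreted matrix protein gene induced by TGF-beta through SMADs and by YAP and TEAD, was the called gene. It had 18.8 and 17.6 TPM at 1 h against 2.65, 3.54 and 2.74 TPM at 8 h. Ctgf fell by 2.28 on the log2(TPM + 1) scale (SE 0.16, limma adjusted p = 0.0385), with every 8 h library below both 1 h libraries, and by 2.08 within series 1. The adjusted p of limma ranged from 0.0015 to 0.62 over the alternatives. The call was lost without any 1 of the libraries other than 8 h replicate 14, within series 1 alone (0.0791) and without a minimum level (0.123), while the size of the difference stayed between -2.58 and -2.08.

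Among the 26 genes induced by TGF-beta, 19 passed the minimum level, with 0 called higher and 1 lower. Their median difference was 0.35 over all libraries and -0.02 within series 1. The most abundant were Cdkn1a, the cell cycle inhibitor p21, at 607 and 615 TPM at 1 h against 736, 719 and 619 TPM at 8 h, and Tsc22d1 at 146 to 182 TPM. Mmp14, a membrane-bound matrix protease, and the integrin gene Itgb5 stood higher in both libraries of series 2 than in the other libraries. Mmp14 had 102.3 and 128 TPM at 1 h against 198, 107 and 186 TPM at 8 h, and Itgb5 had 109 and 116 TPM at 1 h against 179, 103 and 163 TPM at 8 h. The following genes were singled out after their values were seen. Klf10 (TIEG1), an immediate TGF-beta target, had 29.6 and 30.7 TPM at 1 h against 99.9, 66.9 and 86.4 TPM at 8 h. Its groups did not overlap, with a difference of 1.43 (SE 0.18, limma adjusted p = 0.192) and of 1.12 within series 1. Cyr61, like Ctgf a matricellular protein gene, had 38.7 and 34.4 TPM at 1 h against 12.5, 23.8 and 15.2 TPM at 8 h, a difference of -1.09 (limma adjusted p = 0.296) and of -0.60 within series 1. In contrast, Tgfbi, an extracellular matrix protein gene named for its induction by TGF-beta, had 1.66 and 1.09 TPM at 1 h against 0.0626, 2.10 and 0.0815 TPM at 8 h. It was low in 8 h replicates 13 and 15 and highest in 8 h replicate 14, so it divided the libraries by series and not by time. The smooth muscle gene Acta2 had 79.4 and 75.8 TPM at 1 h against 11.2, 114 and 15.8 TPM at 8 h, the same division. The 7 pericyte and fibroblast genes summed to 80.2 and 76.5 TPM at 1 h and to 12.8, 115 and 17.6 TPM at 8 h, nearly all of it Acta2, while Lum was at 0 and Pdgfrb at most 0.153 TPM. The part of other cells in the Tgfbi values was not tested.

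**Figure D3:**
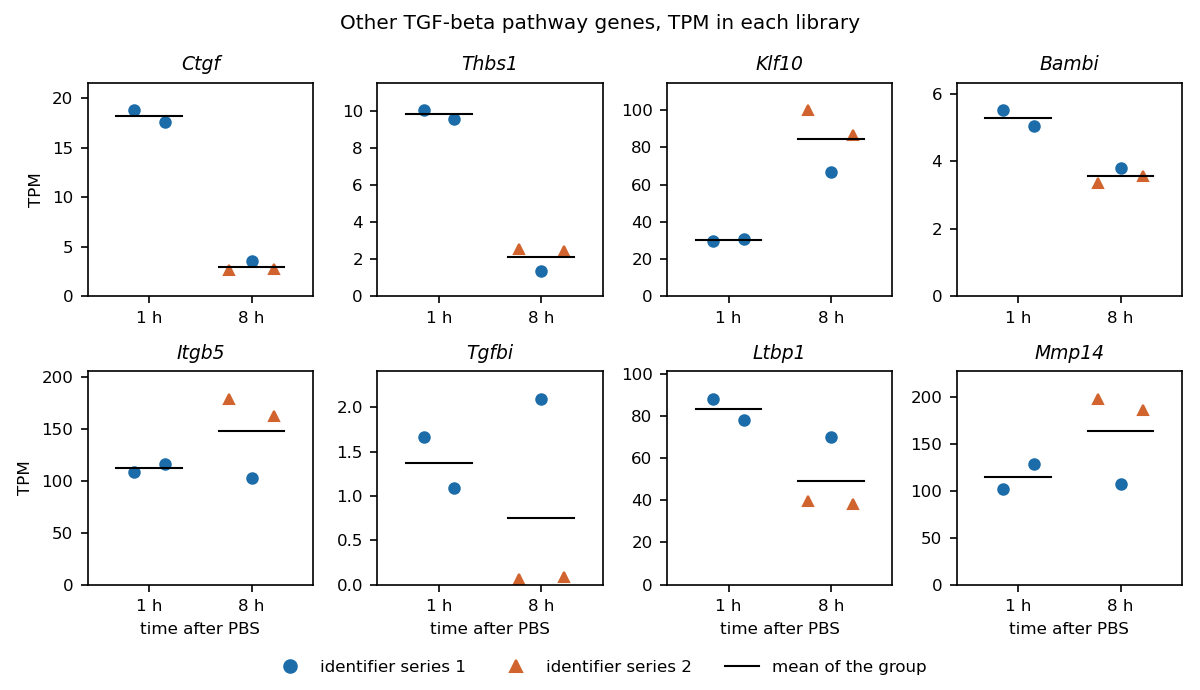
TPM of 8 further pathway genes (vertical axes, each from 0) in the 1 h and 8 h libraries, with 1 point per library, colour and shape for the identifier series, and a line at the group mean. Ctgf, Thbs1, Klf10 and Bambi (upper row) separate by time in all libraries, while in the lower row 8 h replicate 14 lies closer to the 1 h libraries than to the other 8 h libraries for Itgb5, Ltbp1 and Mmp14, and above the 1 h libraries for Tgfbi (2.10 TPM).

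Of the 26 genes for ligands and their activation, 16 passed the minimum level and 0 were called. The most abundant were the integrin genes Itgb8 (99.9 to 139 TPM) and Itgav (58.5 to 73.3 TPM), whose dimer releases latent TGF-beta, and Ltbp1, which binds the latent complex to the matrix. Ltbp1 had 88.1 and 78.3 TPM at 1 h against 39.7, 70.0 and 38.2 TPM at 8 h. Its 8 h values all lay below the 1 h values, but the difference of -0.80 (SE 0.27, limma adjusted p = 0.37) was -0.24 within series 1. Gdf11, a ligand that signals through SMAD2 and SMAD3, had 25.6 and 27.2 TPM at 1 h against 37.8, 34.5 and 35.8 TPM at 8 h (difference 0.44, SE 0.10, limma adjusted p = 0.296; 0.38 within series 1). Thbs1, the thrombospondin that activates latent TGF-beta and itself a TGF-beta target, was also picked after its values were seen. It had 10.03 and 9.59 TPM at 1 h against 2.52, 1.36 and 2.45 TPM at 8 h (difference -1.82, SE 0.23, limma adjusted p = 0.192). Within series 1 the Thbs1 difference was -2.20. With the series as a term limma gave the same difference and an adjusted p of 0.0171. In that fit 8 h replicate 14 alone sets time apart from series.

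Of the 9 receptor and coreceptor genes found by name, 4 passed the minimum level and 0 were called. Bambi, a pseudoreceptor that blocks the signal, had 5.50 and 5.05 TPM at 1 h against 3.35, 3.80 and 3.56 TPM at 8 h (difference -0.46, SE 0.15, limma adjusted p = 0.369; -0.39 within series 1). The activin receptor gene Acvr2b had 5.15 and 5.58 TPM at 1 h against 4.22, 3.02 and 3.98 TPM at 8 h (difference -0.43, SE 0.18, limma adjusted p = 0.403; -0.66 within series 1). For both, every 8 h library lay below the 1 h libraries. Acvr1b had 11.2 and 12.7 TPM at 1 h against 16.5, 13.2 and 17.2 TPM at 8 h, also without overlap, and Acvr2a overlapped at 14.9 to 18.7 TPM. Tdgf1, the Nodal coreceptor, was at 0 in every library.

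Of 16 SMADs and partners, 14 passed and 0 were called. Smad4, shared by the TGF-beta and BMP branches, had 52.5 to 63.9 TPM with overlapping groups. The corepressor genes with which SKI and TGIF proteins act were abundant: Ctbp1 at 166 to 237 TPM, Ctbp2 at 96.4 to 114 TPM and the deacetylase gene Hdac1 at 147 and 142 TPM at 1 h against 178, 155 and 180 TPM at 8 h. Hdac1 did not overlap between the times (difference 0.24, SE 0.10, limma adjusted p = 0.41; 0.10 within series 1). Of 20 genes for turnover and inhibition of the signal, all 20 passed and 0 were called. Ppp1ca (441 to 479 TPM), Strap (228 to 285 TPM) and Stub1 (143 to 175 TPM) overlapped. Fkbp1a, whose protein FKBP12 keeps the type I receptor inactive, had 220 and 199 TPM at 1 h against 243, 426 and 438 TPM at 8 h, without overlap but with an uneven 8 h group (difference 0.77, SE 0.27, limma adjusted p = 0.379; 1.02 within series 1).

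The count table differed from the TPM tables for Smad7 and Skil in 1 column, which was noticed after the values were seen. It lists 5 members (Tgfbr1, Tgfbr2, Smad3, Smad7 and Skil), and its columns, which hold 53.9% of the genes whose mean TPM reached 1, summed to 13988166 to 18572154 counts. The 8 h columns do not match the TPM tables of the libraries they are named for. With 1 h replicate 1 as the reference, 78.0% of 6854 genes in the column of 1 h replicate 2 lay within 0.1 log2 of its table. The column named 8 h replicate 13 fitted the table of 8 h replicate 14 instead (78.3%), and the column named 8 h replicate 15 that of 8 h replicate 13 (76.9%). No table came above 38.2% for the column named 8 h replicate 14. Counts are therefore given by column name.

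In the column named 8 h replicate 14, Smad7 had 123 counts, against 29 and 57 in the 1 h columns and 37 and 35 in the other 8 h columns. As CPM, the count scaled by the sum of its column, this was 8.50, beside 1.88 to 3.45 in the other columns, and 2.46 times the next highest. Skil stood at 100.5 CPM in that column and at 54.5 to 66.5 in the others. Tgfbr1 (83.7 to 118.1), Tgfbr2 (18.5 to 28.8) and Smad3 (243 to 269) had no such gap. The column exceeded the next highest column at least 1.5 times for 2 of the 5 members listed, for 4 of 55 pathway genes (7.27%) and for 2.75% of all 7599 genes. The pathway genes were Inhbb, Gdf15, Pmepa1 and Gadd45b, while the inhibitor genes Bambi, Smurf1 and Smurf2 stood at 1.10, 1.03 and 0.84 times the next column. Pmepa1, a feedback inhibitor that sequesters SMADs, had 79.2 CPM in the column and 25.3 to 30.1 in the others, and Gadd45b, another early target, 14.6 beside 1.62 to 4.43. In the TPM table of 8 h replicate 14 none of the same genes had its highest value. Smad7 had 0.691 TPM there, Skil 5.32 TPM, Pmepa1 7.82 TPM, Inhbb 9.90 TPM and Gdf15 3.77 TPM. Gadd45b had 4.07 TPM, above the 1.93 and 2.24 TPM of 8 h replicates 13 and 15, beside 4.81 and 3.49 TPM at 1 h. Which cells and treatment the column holds cannot be told from these tables.

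**Figure D4:**
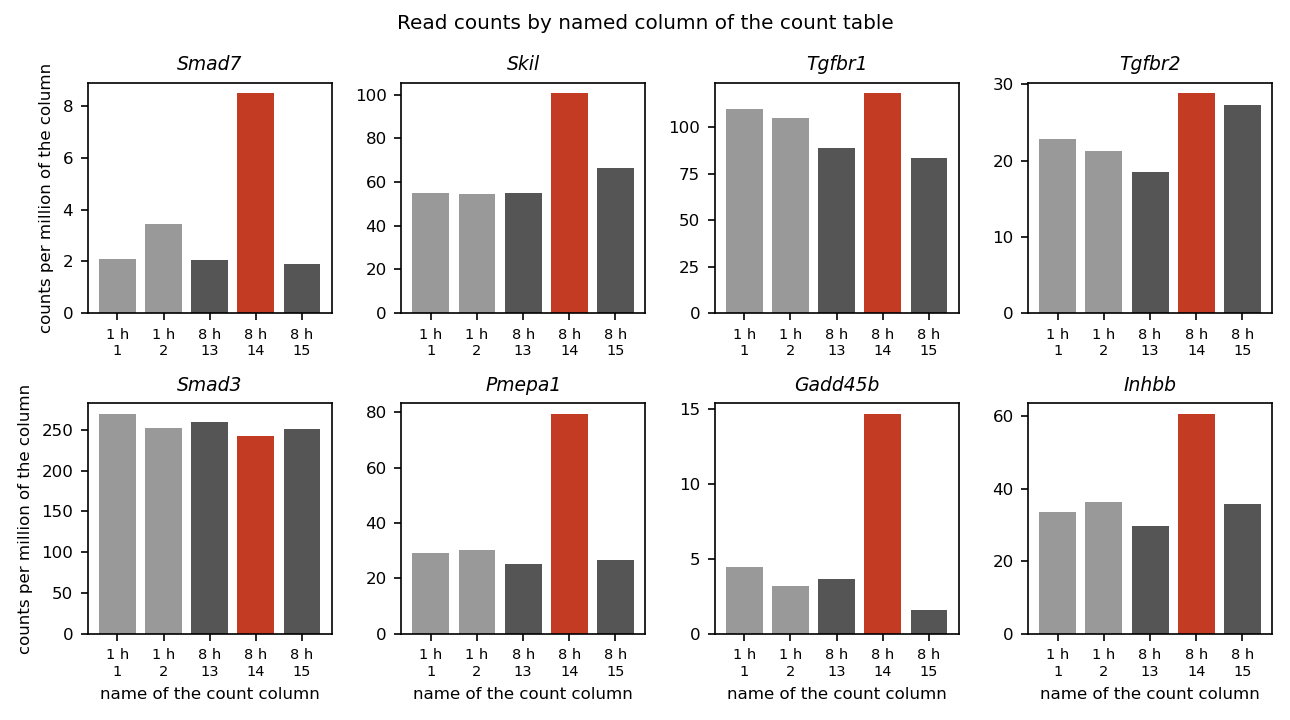
CPM (vertical axes, each from 0) for 8 genes by the name of the count column, with the column named 8 h replicate 14 in red. Smad7, Skil, Pmepa1, Gadd45b and Inhbb stand out in that column, at 8.50, 100.5, 79.2, 14.6 and 60.4, while Smad3 does not, at 243.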

How the data were processed

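RNA was sequenced from 5 stranded, poly-A selected libraries. The authors aligned reads to GRCm38 with STAR (nf-core/rnaseq) and counted them with featureCounts, and the deposited count table holds whole counts without normalization, after a filter not described in the sources used here. It was read by column name, and 0 columns were unassigned. The authors also deposited a table per library with TPM, FPKM and coverage (a per-base signal), by a tool which the sources used here do not name. The deposited FPKM served only for depth, and coverage served for depth and for the member values divided by depth. TPM was summed per gene identifier (15 to 20 rows of repeated genes per table).

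TPM was tested as log2(TPM + 1) with limma 3.58.1 (trend, Benjamini-Hochberg) in R 4.3.3 over the 13870 genes whose mean TPM reached 1, and counts with edgeR 4.0.16 (TMM, filterByExpr) and DESeq2 1.42.0. No covariate was used, and calls needed an adjusted p up to 0.05 with an absolute log2 change above 1, the study's thresholds. Alternatives were a pseudocount of 0.1, no minimum, median-ratio scaling, the series as a term, series 1 alone, leaving out each library, and, chosen after seeing the data, Tgif2 summed with its pseudogene and coverage divided by depth. Members and lists were chosen with earlier results of these data known. Named genes are all members, each called pathway gene, the 4 most abundant of each list, and the 3 genes nearest in course to each of the 3 widest-ranging members, and others are marked as picked after their values were seen. Counts over the lists include a member that is not reported here. Promoter sequences are RefSeq's (GRCm38.p6), and transcripts were aligned locally with Biopython 1.88. The count columns total 13988166 to 18572154, which limits low genes such as Smad7. GRCm38 is named in the submitters' processing notes.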

Additional observations from a re-analysis of the deposited data

How the results depend on the processing

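No paired analysis was possible because the 1 h and 8 h libraries share no replicate number. Limma on TPM called 6 of all genes. It called 0 without the minimum level (2371 genes at an unadjusted p under 0.05), 19 with the identifier series as a term, and 0 to 573 when 1 library was left out, the 573 without 8 h replicate 14, where time and series cannot be told apart. Of the pathway genes 1 was called, against 0 without the minimum level, 2 (Ctgf and Thbs1) with the series as a term, 0 within series 1 alone (14 genes at an unadjusted p under 0.05), and 0 to 8 with 1 library left out, the 8 again without 8 h replicate 14 (Ctgf, Ltbp1, Cyr61, Thbs1, Klf10, Rbl1, Junb and Lrrc32). edgeR called 0 genes in each of its settings. The median difference of the members, 0.05, became -0.17 with the series as a term and within series 1 alone, -0.03 with median-ratio scaling, 0.15 over the 5 members in the count table, and 0.0041 to 0.06 with 1 library left out. In the count table, where the 8 h columns do not match their libraries, the Smad7 difference was 0.53 in place of -0.09 and that of Smad3 -0.08 in place of 0.06. The Tgif2 difference stayed positive, from 0.87 with median-ratio scaling to 1.06 with coverage divided by depth. Within series 1, 8 h replicate 14 is a lone library assumed to vary like the 1 h group. Genes near 1 TPM, Smad7 and Tgfb1 among them, are limited by depth.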
